A study of Mus musculus with 14 samples.

Results

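The Polycomb repressive complex genes described here are 9 genes, Ezh2, Ezh1, Eed, Suz12, Jarid2, Bmi1, Rnf2, Cbx7 and Phc1. They were picked by gene symbol alone, as every probe set whose annotated symbol is one of these 9, out of 18193 genes measured on the arrays. The 9 genes had 27 probe sets between them, and each gene was represented by the probe set with the highest mean log2 intensity. The 18 other probe sets served as a check. All 9 chosen probe sets lay above background on all 14 arrays, where background means the brightest among 27 bacterial controls to which no transcript had been added, taken per array.

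Polycomb proteins keep genes silent by marking histones. Polycomb repressive complex 2 (PRC2) methylates lysine 27 of histone H3 through its catalytic subunit EZH2 or EZH1, together with EED and SUZ12, and accessory proteins such as JARID2 help to bring it to chromatin. Polycomb repressive complex 1 (PRC1) ubiquitinates histone H2A through RING1 or RNF2, and in its canonical form also holds a PCGF protein such as BMI1, a CBX protein that reads the H3 mark and a PHC protein. EZH2 is known for its high abundance in germinal center B cells, where it is needed for the germinal center reaction, and BMI1 is known for repressing the Cdkn2a locus. These statements are background and not results of these data.

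RNA from 4 subsets of splenic B cells of male C57Bl/Ka mice was amplified and hybridised to Affymetrix mouse arrays. Germinal center cells (3 arrays) were sorted at day 14 after immunization from mice of 6 to 10 weeks, plasma cells (4 arrays) at day 7 from mice of 5 to 9 weeks, and memory cells (4 arrays) at 10 to 12 weeks from mice of 14 to 18 weeks. Naive cells (3 arrays) came from unimmunized mice of 4 to 8 weeks. All immunized mice received the hapten carrier NP-CGG in alum by intraperitoneal injection, at 100 µg where the label gives a dose, which it does for all arrays but plasma replicate 1. T cells (CD3, CD4, CD8, CD5), myeloid cells (CD11b, Gr-1) and erythroid cells (Ter119) were gated out of all 4 sorts. Germinal center cells were NP+, B220+, PNA+ and low in CD38. Plasma cells were NP+, syndecan-1+, PNA- and low in B220. Memory cells were NP+, B220+, high in CD38 and PNA-, without IgM or IgD. Naive cells were B220+, CD23+, IgD+ and low in IgM. Lambda light chain was part of all 4 gates. Subset, immunization, time and age cannot be told apart in this design. The labels do not say whether the replicates of a subset came from separate animals or pools, so a p-value here measures only how far these arrays of one subset lie apart, and that spread may be technical. In bulk RNA, fewer cells expressing a gene and less RNA per cell cannot be told apart.

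The labels were checked against marker genes. All 7 measured germinal center markers were higher in germinal center than in naive cells, all 8 plasma cell markers were higher in plasma than in naive cells, and all 7 memory markers were higher in memory than in naive cells. All 14 arrays correlated best with arrays of their own subset. The summed intensity of 7 T cell markers was 95.1 to 109 in germinal center, 121 to 149 in plasma, 86.4 to 97.2 in memory and 86.7 to 95.7 in naive arrays, and Cd3g and Cd8b1 lay above background on no array. The sum of 7 myeloid markers was 109.6 to 121 in germinal center, 105 to 245 in plasma, 97.3 to 107 in memory and 113 to 139 in naive arrays, and Itgam, S100a8 and S100a9 lay above background on no array. Both sums reached their highest values in plasma arrays. Of each list 4 markers lay above background on all plasma arrays, against 2 on all naive arrays. In plasma against naive cells 3 of 7 T cell markers were higher and 0 lower, by limma at an adjusted p under 0.05. Of 7 myeloid markers 3 were higher and 1 lower. The part of T cell and myeloid RNA in the plasma results was not tested. The actin probe sets at the 3′ end were brighter than those in the middle of the transcript by 11.3 ± 5.81 fold in germinal center (n = 3), 6.27 ± 0.716 fold in plasma (n = 4), 4.63 ± 0.501 fold in memory (n = 4) and 4.79 ± 0.464 fold in naive arrays (mean ± SD, n = 3). This ratio, a sign of how far the labelled RNA reached along the transcript, had its highest mean in germinal center cells, although their replicate 3 (6.11) lay below 2 of the plasma arrays (6.83 and 6.91), and its part in the results below was examined only by giving the fit this ratio as an extra term. Among 6116 genes with a mean log2 intensity of at least 6, the median log2 difference from naive cells was -0.20 for germinal center cells, -0.25 for plasma cells and -0.20 for memory cells.

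The promoter windows of the 9 genes, from 250 bases before to 50 bases after the start of the gene, were read from RefSeq (GRCm38.p6). All 9 genes were matched, with 10 windows in all since Jarid2 has a pair. The windows were searched on both strands for the E2F octamers TTTCCCGC, TTTCGCGC, TTTGCCGC and TTTGGCGC, which were chosen because E2F proteins drive genes of DNA replication. The windows of Ezh2 and Suz12 held one such octamer each, that is 2 of 10 windows, against 744 of 32851 windows of all genes (2.26%) and 12 of 32 windows of replication and division genes (37.5%). Below, the windows of Ezh2 and Suz12 are shown with the match in capitals, and those of Ezh1 and Bmi1, which hold none, are shown because these genes run opposite to Ezh2 in germinal center cells. Jarid2, Rnf2 and Cbx7, also lower there than in naive cells, hold none either. Nor do Eed and Phc1, which did not pass there. Ezh2 (chr6:47594981-47595280, minus strand), Suz12 (chr11:79992856-79993155, plus strand), Ezh1 (chr11:101226414-101226713, minus strand) and Bmi1 (chr2:18676768-18677067, plus strand) read, 5′ to 3′:
Ezh2: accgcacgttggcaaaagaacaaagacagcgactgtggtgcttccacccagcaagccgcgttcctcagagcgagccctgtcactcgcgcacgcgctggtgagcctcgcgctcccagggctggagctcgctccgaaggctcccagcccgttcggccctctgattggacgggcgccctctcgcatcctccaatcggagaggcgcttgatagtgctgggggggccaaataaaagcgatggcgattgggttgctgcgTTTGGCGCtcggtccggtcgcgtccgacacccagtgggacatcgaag
Suz12: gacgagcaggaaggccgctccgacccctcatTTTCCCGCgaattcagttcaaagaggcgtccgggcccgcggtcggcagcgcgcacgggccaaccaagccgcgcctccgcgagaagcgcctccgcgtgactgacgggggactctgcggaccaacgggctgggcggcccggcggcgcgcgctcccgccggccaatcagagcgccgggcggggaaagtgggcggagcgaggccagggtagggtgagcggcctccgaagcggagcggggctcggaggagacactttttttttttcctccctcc
Ezh1: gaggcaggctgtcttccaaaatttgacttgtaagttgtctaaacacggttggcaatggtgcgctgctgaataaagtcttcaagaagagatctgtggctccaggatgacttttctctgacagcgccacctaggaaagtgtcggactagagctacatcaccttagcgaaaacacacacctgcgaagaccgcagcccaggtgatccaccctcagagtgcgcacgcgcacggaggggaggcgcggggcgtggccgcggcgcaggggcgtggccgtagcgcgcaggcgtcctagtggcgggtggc
Bmi1: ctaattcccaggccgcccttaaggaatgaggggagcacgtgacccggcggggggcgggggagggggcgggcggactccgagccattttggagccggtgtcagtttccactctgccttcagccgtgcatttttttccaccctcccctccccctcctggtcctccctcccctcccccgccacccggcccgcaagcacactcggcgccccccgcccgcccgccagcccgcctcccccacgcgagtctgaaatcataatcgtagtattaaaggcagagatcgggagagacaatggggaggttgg
The match in the Ezh2 window covers bases 4 to 11 after the start, and the match in the Suz12 window covers bases -219 to -212. For Ezh2 and Cbx7, RefSeq places the start of another transcript further upstream than the start used here. The shorter motif TTTGAA, the core of an element found at cell cycle genes, lay in 3 of 10 windows, those of Eed, Suz12 and Cbx7. It lay in 17.9% of all windows and in 10 of 32 windows of replication and division genes (31.2%). A match describes the letters only, and no binding was measured.

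Across the 4 subsets, 8 of the 9 genes differed by the moderated F test of limma (adjusted p under 0.05), against 40.9% of all genes; Suz12 did not pass (adjusted p = 0.0955). The changes did not run one way. In germinal center cells Ezh2 was far higher than in naive cells, while Ezh1, Jarid2, Bmi1, Rnf2 and Cbx7 were lower. In plasma cells Ezh2 was again higher, and Ezh1, Eed, Rnf2, Cbx7 and Phc1 were lower. In memory cells only Phc1 passed the test, below naive cells. Intensities of different probe sets cannot be set against each other, so each gene is compared with itself between subsets.

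**Figure D1:**
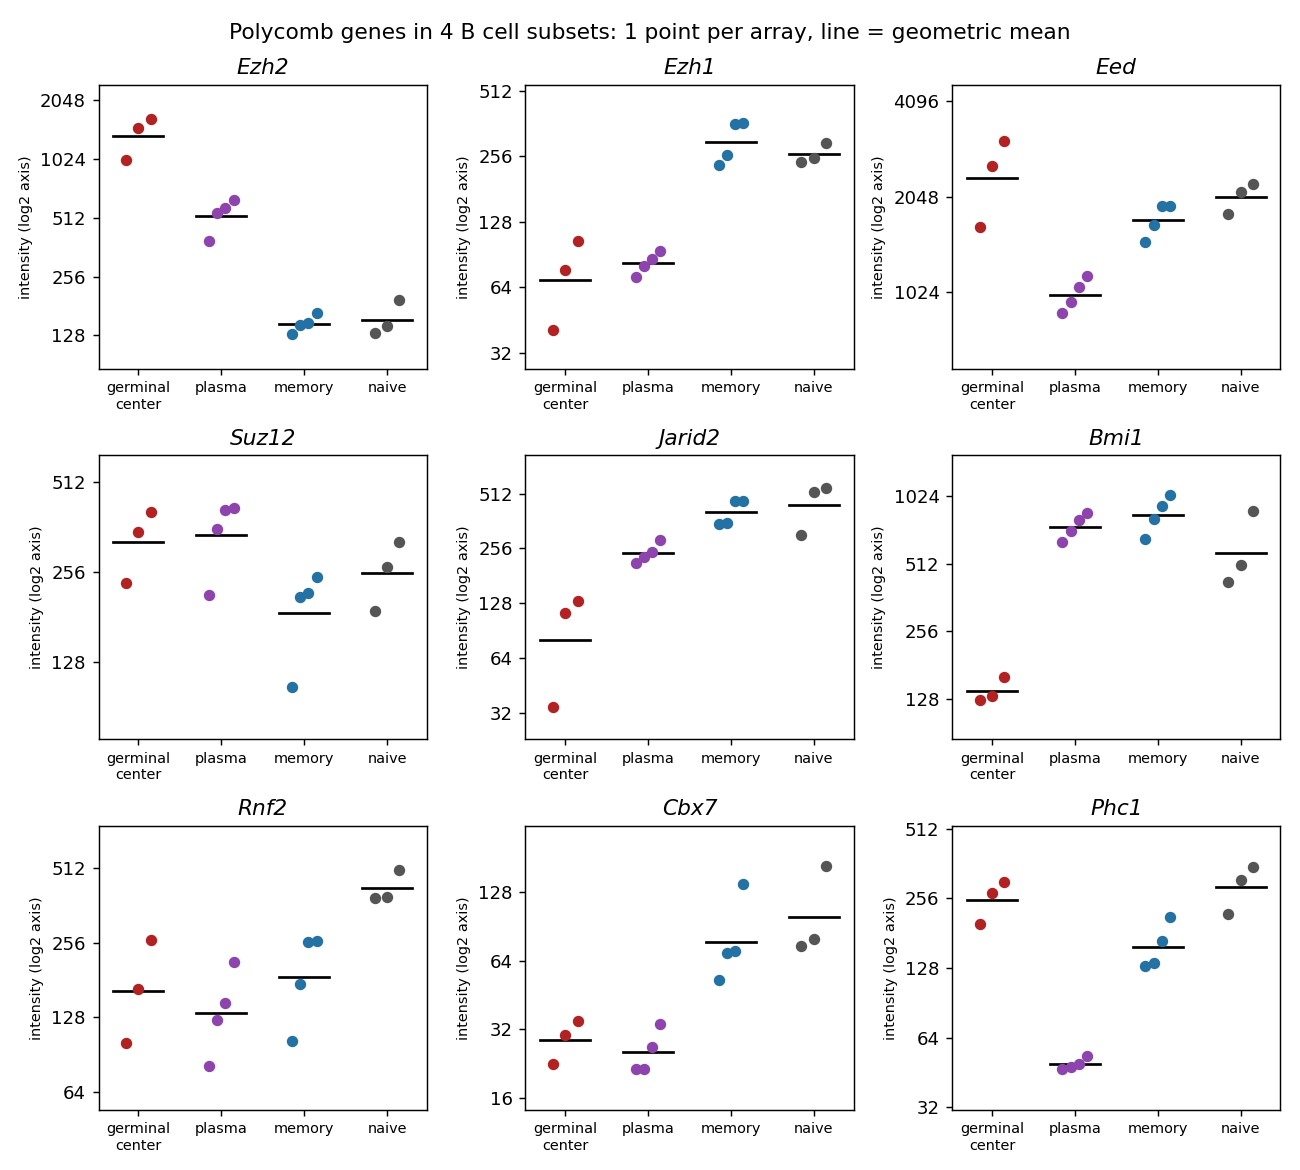
Intensity of the 9 Polycomb genes on the 14 arrays, on a log2 axis, 1 panel per gene and 1 point per array, with a line at the geometric mean of each subset. Ezh2 is highest in germinal center arrays (1014 to 1639) and lowest in memory and naive arrays (129 to 193), and Ezh1 runs the other way.

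Ezh2 (chr6:47530274-47595270), the main H3 lysine 27 methyltransferase of dividing cells, had intensities of 1639, 1014 and 1486 in germinal center cells, 542, 633, 574 and 389.8 in plasma cells, 167, 145, 129 and 148 in memory cells, and 132, 142 and 193 in naive cells. Germinal center arrays lay above all plasma arrays, which lay above all memory and naive arrays, while memory and naive arrays overlapped. Ezh2 was 8.79-fold higher in germinal center than in naive cells (log2 difference 3.14 ± 0.22 SE, limma adjusted p = 1.22e-07) and 3.42-fold higher in plasma than in naive cells (1.78 ± 0.20, adjusted p = 8.88e-06). It was lower in memory than in germinal center cells by a log2 difference of -3.20 ± 0.20 (adjusted p = 4.61e-08) and lower in plasma than in germinal center cells by -1.36 ± 0.20 (adjusted p = 0.000141). Memory and naive cells differed in Ezh2 by a log2 value of -0.07 ± 0.20, with a 95% interval from -0.50 to 0.37 (adjusted p = 0.928). Ezh2 has 1 probe set on this array, so no other probe set could check it.

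Ezh1 (chr11:101191115-101226463), the paralog of EZH2 that is known from resting cells, had intensities of 40.4, 105 and 76.8 in germinal center cells, 71.5, 79.7, 93.4 and 86.3 in plasma cells, 362, 232, 359 and 259 in memory cells, and 293, 252 and 241 in naive cells. Germinal center and plasma arrays overlapped, and all of them lay below every memory and naive array. Ezh1 was 3.80-fold lower in germinal center than in naive cells (log2 difference -1.93 ± 0.28, limma adjusted p = 0.00017) and 3.17-fold lower in plasma than in naive cells (-1.67 ± 0.26, adjusted p = 0.000184). It was 4.32-fold higher in memory than in germinal center cells (2.11 ± 0.26, adjusted p = 3.8e-05). For Ezh1 the log2 difference of memory from naive cells was 0.19 ± 0.26, with an interval from -0.38 to 0.75, and in plasma against germinal center cells it was 0.26 ± 0.26, and neither passed. The other 3 Ezh1 probe sets were dim. One (1418290_a_at) lay above background on 9 arrays and passed only in plasma against memory cells, in the same direction (-0.64 ± 0.20, adjusted p = 0.0242 over all probe sets). Another, 1429630_at, lay above it on 1 array and correlated at -0.75 with the chosen probe set, and the last lay above it on none. In memory against germinal center cells 1429630_at passed in the opposite direction (-0.52 ± 0.14, adjusted p = 0.0193). With the mean of all 4 probe sets in place of the brightest, the Ezh1 log2 differences were smaller, at -0.39 in germinal center and -0.50 in plasma against naive cells, 0.55 in memory against germinal center cells and -0.66 in plasma against memory cells, and all passed (adjusted p = 0.0172, 0.00138, 0.00101 and 5.62e-05).

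The balance of both methyltransferase genes was followed as the log2 intensity of Ezh2 minus that of Ezh1 on each array, a difference whose absolute size depends on the probes and only whose change between subsets can be read. It was 4.30 ± 1.03 in germinal center cells (SD, n = 3), 2.68 ± 0.37 in plasma cells (n = 4), -1.02 ± 0.35 in memory cells (n = 4) and -0.76 ± 0.42 in naive cells (n = 3). It was higher in plasma than in naive cells by 3.44 and higher in plasma than in memory cells by 3.70. It was lower in memory than in germinal center cells (difference -5.32) and lower in plasma than in germinal center cells (difference -1.62). For each of these 4 pairs an exact two-sided permutation test gave p = 0.0286, the smallest these numbers of arrays allow (adjusted over 6 pairs, 0.0429). In germinal center against naive cells the difference was 5.06, and no array of one subset overlapped the other, but 3 against 3 arrays cannot go below the exact p = 0.1 found. The memory minus naive value was -0.25 (exact permutation p = 0.457). Over the 14 arrays Ezh2 and Ezh1 correlated at r = -0.92, which describes arrays that fall into subsets, and at r = -0.50 after the mean of each subset was taken out.

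**Figure D2:**
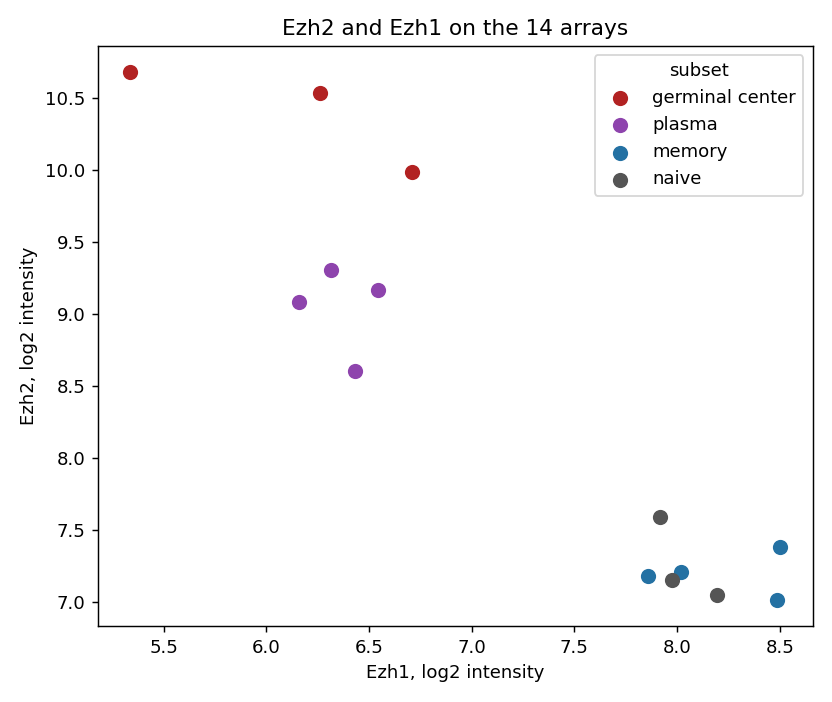
Log2 intensity of Ezh2 (vertical axis) against log2 intensity of Ezh1 (horizontal axis), 1 point per array, coloured by subset. Germinal center and plasma arrays lie at high Ezh2 and low Ezh1, and memory and naive arrays share the area of low Ezh2 and high Ezh1.

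Neither of the other core PRC2 genes, Eed and Suz12, passed in germinal center against naive cells. Eed (chr7:89954654-89980976), which binds the methylated histone and stimulates the enzyme, had intensities of 3076, 1640.2 and 2559 in germinal center cells, 1151, 955, 1059 and 880.0 in plasma cells, 1479, 1662, 1911 and 1915 in memory cells, and 2125, 1804 and 2251 in naive cells. The plasma arrays were the low ones, below every array of the other subsets, which overlapped each other. Eed was 2.04-fold lower in plasma than in naive cells (log2 difference -1.03 ± 0.19, limma adjusted p = 0.000771), and also lower in plasma than in germinal center cells (-1.22 ± 0.19, adjusted p = 0.000221) and in plasma than in memory cells (-0.78 ± 0.18, adjusted p = 0.00295). In germinal center against naive cells the log2 difference was 0.19 ± 0.20, with an interval from -0.24 to 0.63. The second Eed probe set lay above background on 1 array only.

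Suz12 (chr11:79993106-80034123), the scaffold subunit that the complex needs for its stability, had intensities of 349, 234 and 408 in germinal center cells, 420.3, 357, 413 and 215 in plasma cells, 105, 218, 247 and 211 in memory cells, and 266, 189.9 and 324 in naive cells. The subsets overlapped in all 6 comparisons. Only plasma against memory cells passed (log2 difference 0.87 ± 0.29, limma adjusted p = 0.0342), and this call was lost without plasma replicate 1, 2 or 3 (adjusted p = 0.0954, 0.0735 and 0.0895) or without memory replicate 1 (0.60, adjusted p = 0.104). The 5 other Suz12 probe sets differed among themselves. In plasma against naive cells 1449661_at was lower (-1.93 ± 0.53, adjusted p = 0.0151) and 1427253_s_at was higher (1.30 ± 0.42, adjusted p = 0.0343), each over all probe sets. No direction is therefore given for Suz12 between these subsets.

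Jarid2 (chr13:44730774-44921643), an accessory subunit that helps PRC2 to bind chromatin, had intensities of 34.6, 113 and 132 in germinal center cells, 214, 229.9, 244 and 284 in plasma cells, 355, 466, 347 and 468 in memory cells, and 552, 304 and 523 in naive cells. The germinal center arrays lay below all others and the plasma arrays lay between them and the memory and naive arrays, with no overlap. Jarid2 was 5.53-fold lower in germinal center than in naive cells (log2 difference -2.47 ± 0.39, limma adjusted p = 0.000356), 5.04-fold higher in memory than in germinal center cells (2.33 ± 0.36, adjusted p = 0.000301) and 3.01-fold higher in plasma than in germinal center cells (1.59 ± 0.36, adjusted p = 0.00476). Germinal center replicate 1 was the lowest array, and without it these log2 differences were -1.86, 1.73 and 0.98, each still passing (adjusted p = 0.000106, 0.000129 and 0.0065). In plasma against naive cells the log2 difference of -0.88 ± 0.36 did not pass (adjusted p = 0.0878), although it did so without naive replicate 2 (-1.15, adjusted p = 0.046) and without germinal center replicate 1 (adjusted p = 0.00426). The second Jarid2 probe set, 1422697_s_at, passed in that comparison (-1.33 ± 0.21, adjusted p = 0.000289 over all probe sets) and in germinal center against naive cells (-1.88 ± 0.23, adjusted p = 5.15e-05). Its log2 difference in plasma against germinal center cells was 0.55 ± 0.21 (adjusted p = 0.0891). The third and dimmest, 1450710_at, was above background on 13 arrays and was also lower in germinal center than in naive cells (-1.94 ± 0.30, adjusted p = 0.000455). In plasma against memory cells the chosen probe set gave -0.74 ± 0.34 (limma adjusted p = 0.113) and 1422697_s_at -0.92 ± 0.20 (adjusted p = 0.0023). There 1450710_at ran against both (1.00 ± 0.26, adjusted p = 0.009). For memory against naive cells the chosen one gave -0.13 ± 0.36 and 1422697_s_at -0.41 ± 0.21, and neither passed. Only 1450710_at did so (-1.26 ± 0.28, adjusted p = 0.0215). With the mean of the 3 probe sets, memory against germinal center cells gave 1.49 (adjusted p = 0.000264).

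Among the PRC1 genes, Bmi1 (chr2:18677018-18686629), the PCGF protein that stimulates the ubiquitin ligase, was low in germinal center cells alone. Its intensities were 132, 127 and 161 in germinal center cells, 799, 712, 862 and 639 in plasma cells, 660.3, 809.9, 1035 and 928 in memory cells, and 504, 422 and 878 in naive cells. Every germinal center array lay below every other array, while plasma, memory and naive arrays overlapped. Bmi1 was 4.11-fold lower in germinal center than in naive cells (log2 difference -2.04 ± 0.24, limma adjusted p = 2.65e-05), 6.09-fold higher in memory than in germinal center cells (2.61 ± 0.23, adjusted p = 1.08e-06) and 5.38-fold higher in plasma than in germinal center cells (2.43 ± 0.23, adjusted p = 1.54e-06). The second Bmi1 probe set, 1448733_at, moved in the same directions in these 3 comparisons (-2.96 ± 0.31, 3.70 ± 0.29 and 2.41 ± 0.29, each passing over all probe sets). The probe sets differed in plasma against memory cells, where the chosen one gave -0.18 ± 0.21 (adjusted p = 0.576) and the second -1.28 ± 0.27 (adjusted p = 0.00217). For plasma against naive cells the chosen probe set gave 0.39 ± 0.23 and the second the opposite sign (-0.55 ± 0.29, adjusted p = 0.204), and neither passed. The chosen one passed there without naive replicate 3 (0.70, adjusted p = 0.0163), so no direction is given. In memory against naive cells the chosen probe set gave 0.57 ± 0.23 and the second 0.74 ± 0.29, and neither passed, although the chosen one did without naive replicate 3 (0.88, adjusted p = 0.0255).

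Rnf2 (chr1:151469398-151500991), the gene of the catalytic ubiquitin ligase RING1B, had intensities of 262, 101 and 167 in germinal center cells, 125, 146, 213 and 81.4 in plasma cells, 103, 174, 257 and 259.8 in memory cells, and 392, 388 and 504 in naive cells. The naive arrays lay above all others, and the other 3 subsets overlapped. Rnf2 was 3.18-fold lower in plasma than in naive cells (log2 difference -1.67 ± 0.38, limma adjusted p = 0.00354) and 2.59-fold lower in germinal center than in naive cells (-1.38 ± 0.41, adjusted p = 0.0278). The log2 difference of memory from naive cells was -1.19 ± 0.38 and did not pass (adjusted p = 0.0954). The second probe set above background, 1451519_at, was lower in all 3 subsets than in naive cells, with log2 differences of -0.97 ± 0.27 for germinal center cells, -1.26 ± 0.26 for plasma cells and -1.06 ± 0.26 for memory cells (adjusted p = 0.0263, 0.00199 and 0.0336 over all probe sets). The germinal center call rested on few arrays, since it was lost without germinal center replicate 2 (-1.02, adjusted p = 0.122) or 3 (adjusted p = 0.0525) and without any one of the naive replicates 1, 2 and 3 (adjusted p = 0.0606, 0.0522 and 0.0945). With the actin ratio in the model it was -0.78 (adjusted p = 0.613). The other 3 Rnf2 probe sets lay above background on no array, and with the mean of all 5 the log2 difference from naive cells was -0.40 in germinal center (adjusted p = 0.0688) and -0.58 in plasma cells (adjusted p = 0.00442).

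Cbx7 (chr15:79915804-79971143), a reader of methylated H3 lysine 27, was dim. Its intensities were 22.5, 30.1 and 35.0 in germinal center cells, 21.4, 26.8, 33.8 and 21.4 in plasma cells, 69.0, 52.6, 139 and 70.5 in memory cells, and 165, 74.1 and 79.4 in naive cells. Germinal center and plasma arrays overlapped and lay below all memory and naive arrays, which also overlapped. Cbx7 was 3.45-fold lower in germinal center than in naive cells (log2 difference -1.78 ± 0.35, limma adjusted p = 0.00218) and 3.90-fold lower in plasma than in naive cells (-1.96 ± 0.33, adjusted p = 0.000339). It was higher in memory than in germinal center cells (1.42 ± 0.33, adjusted p = 0.00584) and lower in plasma than in memory cells (-1.60 ± 0.31, adjusted p = 0.000807). With that actin ratio added to the model, the difference of germinal center from naive cells was -1.74 (adjusted p = 0.0842) and that of memory from germinal center cells 1.38 (adjusted p = 0.172). A second probe set, 1420039_s_at, was lower in plasma than in naive cells (-0.73 ± 0.15, adjusted p = 0.00196) and gave -0.23 ± 0.16 in germinal center against naive cells (adjusted p = 0.371 over all probe sets). With the mean of the 3 Cbx7 probe sets the log2 differences were -0.66 in germinal center and -1.01 in plasma against naive cells and 0.70 in memory against germinal center cells, and all passed (adjusted p = 0.0061, 6.53e-05 and 0.0022).

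Phc1 (chr6:122317731-122340227), a polyhomeotic protein that lets PRC1 cluster on chromatin, was low in plasma cells. Its intensities were 301, 199 and 271 in germinal center cells, 49.1, 46.9, 47.7 and 53.3 in plasma cells, 167, 135, 213 and 131 in memory cells, and 308, 219.9 and 351 in naive cells. The plasma arrays lay far below all others and close together, the memory arrays lay below the naive ones, and germinal center arrays overlapped with both memory and naive arrays. Phc1 was 5.84-fold lower in plasma than in naive cells (log2 difference -2.55 ± 0.20, limma adjusted p = 2.15e-07), and also lower in plasma than in germinal center cells (-2.36 ± 0.20, adjusted p = 6.32e-07) and in plasma than in memory cells (-1.69 ± 0.19, adjusted p = 5.45e-06). It was also 1.82-fold lower in memory than in naive cells (-0.86 ± 0.20, adjusted p = 0.0222). This call was lost without naive replicate 1 or 3 (adjusted p = 0.0747 and 0.113) and without memory replicate 2 or 4 (adjusted p = 0.069 and 0.0598). In memory against germinal center cells it was lower by a log2 difference of -0.68 ± 0.20 (adjusted p = 0.0256), a call lost without germinal center replicate 1 or 3 (adjusted p = 0.111 and 0.0704), without memory replicate 2 or 4 (adjusted p = 0.0719 and 0.0742) and after the actin ratio was added to the model (-0.83, adjusted p = 0.172). Phc1 has 1 probe set.

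Counted over the 9 genes, germinal center against naive cells had 1 gene higher and 5 lower by limma at an adjusted p under 0.05, against 8.37% of all genes higher and 11.1% lower (19.5% either way). The median log2 difference of the 9 genes was -1.38, against 0.06 for all genes. Plasma against naive cells had 1 gene higher and 5 lower, against 14.2% and 16.1% of all genes (30.3% either way), with a median of -1.03 against 0.06. Memory against naive cells had 0 genes higher and 1 lower, against 2.31% and 3.26% of all genes (5.57% either way), with a median of -0.24 against -0.03. Over the 6116 brighter genes described above the median difference from naive cells was -0.20 (germinal center), -0.25 (plasma) and -0.20 (memory). At an unadjusted p under 0.05 the counts for memory against naive cells were 1 higher and 2 lower. The comparisons with naive cells share the naive arrays.

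Between the immunized subsets, memory against germinal center cells had 4 genes higher (Bmi1, Jarid2, Ezh1 and Cbx7) and 2 lower (Ezh2 and Phc1), against 11.0% and 11.5% of all genes (22.4% either way). Plasma against germinal center cells had 2 genes higher (Bmi1 and Jarid2) and 3 lower (Phc1, Ezh2 and Eed), against 11.2% and 12.6% (23.8% either way). Plasma against memory cells had 2 genes higher (Ezh2 and Suz12) and 4 lower (Ezh1, Phc1, Cbx7 and Eed), against 17.2% and 16% of all genes (33.2% either way). The call for Suz12 rested on its brightest probe set only. Of its other probe sets, 1427253_s_at gave 1.04, 1452364_at 0.88 and 1420022_s_at 0.25. The remaining ones, 1449661_at at -0.31 and 1420020_at at -0.17, ran the other way, and none of these passed. With the actin ratio in the model, 4 genes passed in germinal center against naive cells and 4 in memory against germinal center cells, in place of 6 and 6.

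**Figure D3:**
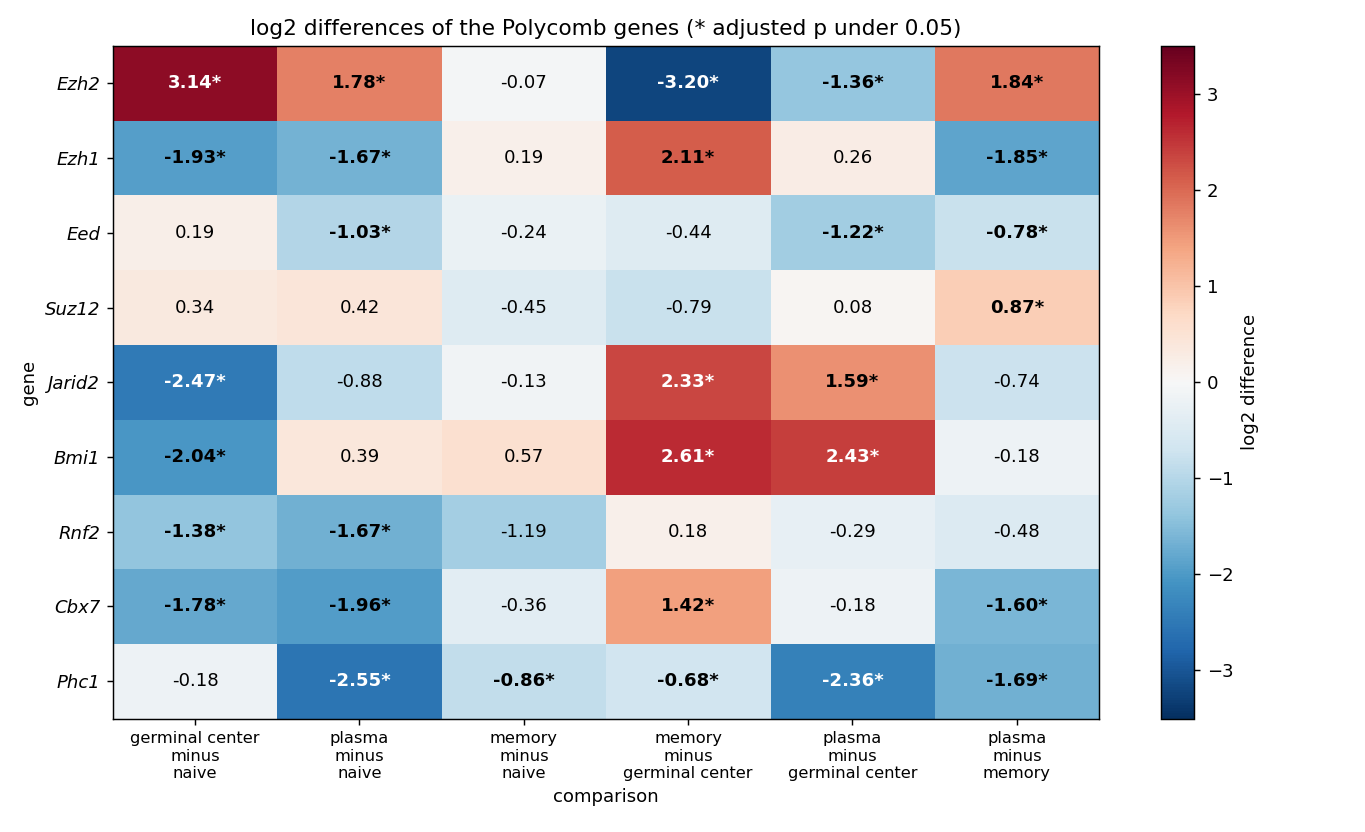
Log2 difference of each of the 9 genes (rows) in the 6 comparisons (columns), with the first-named subset minus the second, coloured red where higher and blue where lower. An asterisk marks a limma adjusted p under 0.05 over all genes, and the memory minus naive column holds a single asterisk, at Phc1 (-0.86).

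The other probe sets were compared with the chosen one wherever a gene was called and another of its probe sets lay above background on all 14 arrays. This gave 11 cases, of which 9 had the same direction, 7 of these also passing, and 2 had the opposite direction. Both opposite cases were in Suz12. The 18 other probe sets are dimmer by the rule that chose the first, and 6 of them lay above background on all 14 arrays, 8 on some and 4 on none. Suffixes in the probe set names mark probes shared between transcripts (_a_at, _s_at) or open to cross-hybridisation (_x_at).

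**Figure D4:**
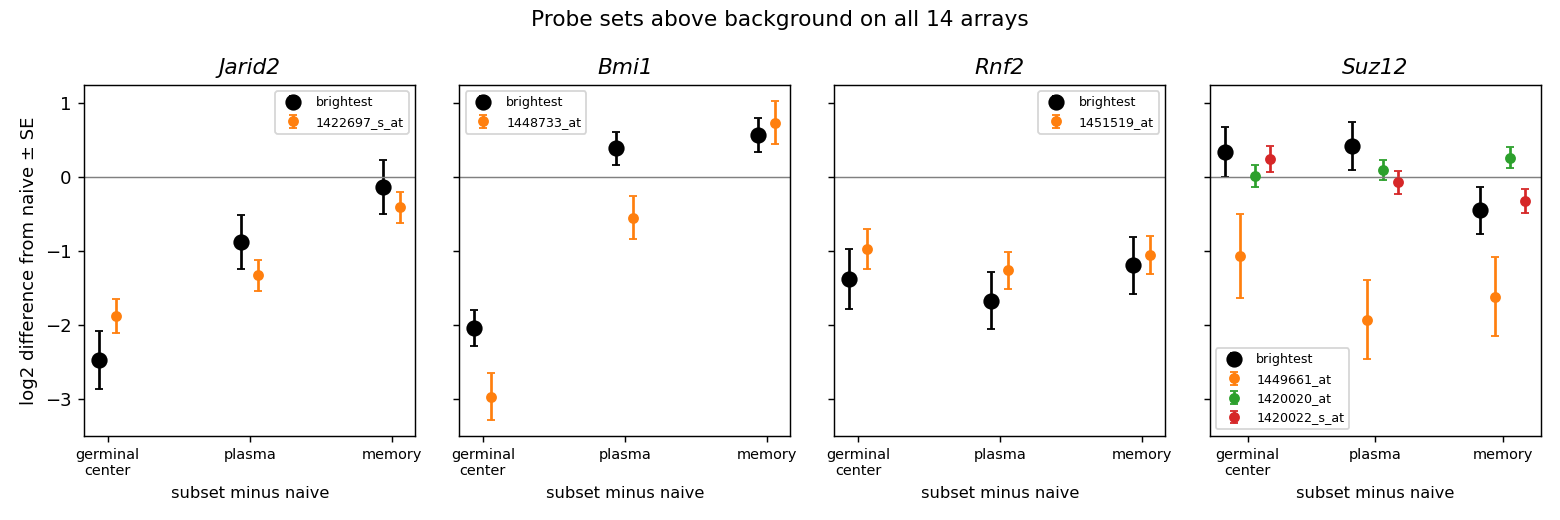
Log2 difference from naive cells (± SE) for each immunized subset for the probe sets above background on all 14 arrays, in the genes that have more than 1 such probe set, with the brightest in black. The probe sets of Bmi1, Jarid2 and Rnf2 lie on one side of 0 in germinal center cells, while those of Suz12 spread to both sides of 0.

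For each gene the 3 genes outside the 9 with the most similar pattern were found by Pearson correlation of log2 intensity over the 14 arrays, among 12310 genes above background on at least 3 arrays. The arrays fall into 4 subsets, so these values mostly describe subset means, and they carry no test. Ezh2 was closest to Gpsm2 (r = 0.989), Spag5 (0.987) and Kif23 (0.986), and its r with Mki67, a marker of dividing cells, was 0.84. Spag5 and Kif23 are known from the mitotic spindle and cell division. Ezh1 was closest to Sfxn3 (0.970), Cyp4f18 (0.970) and Rassf5 (0.966), and its r with Mki67 was -0.85. Cbx7 was closest to Vps33a (0.957), Kctd2 (0.954) and Ube2d1 (0.943), and its r with Mki67 was -0.88. Bmi1 was closest to Cmah (0.972), Svil (0.961) and Malat1 (0.953). Phc1 was closest to Exo5 (0.982), Smad1 (0.977) and Gcnt1 (0.973). Eed was closest to Dennd1b (0.968), Ccdc50 (0.964) and N4bp2 (0.962), and Rnf2 to Crk (0.929), Kbtbd2 (0.925) and Tfam (0.924). Suz12 was closest to Uba3 (0.938), and Jarid2 to 4632427E13Rik (0.959), a placeholder symbol. Between the 9 genes themselves, Eed and Phc1 correlated at r = 0.92 (0.56 within subsets) and Cbx7 and Ezh1 at r = 0.90 (0.57 within subsets).

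Of 9 further PRC2 genes, 2 were higher and 1 lower in germinal center than in naive cells, where 8.37% of all genes were higher and 11.1% lower, with a median log2 difference of 0.26 against 0.06 for all genes. Mtf2, which recruits PRC2 to CpG-rich DNA, was higher (1.40 ± 0.27, limma adjusted p = 0.00186), and so was Rbbp4, a histone chaperone of the core complex (0.78 ± 0.15, adjusted p = 0.0022), while Phf1, another accessory protein, was lower (-1.11 ± 0.22, adjusted p = 0.00217). In plasma against naive cells 1 was higher and 3 lower (median -0.24), where 14.2% of all genes were higher and 16.1% lower, and Mtf2 was among the lower ones (-1.01 ± 0.25, adjusted p = 0.00666), with Lcor (-1.81 ± 0.43, adjusted p = 0.00494) and Phf1 (-0.98 ± 0.21, adjusted p = 0.00192). Lcorl was higher (1.29 ± 0.39, adjusted p = 0.022). Between memory and naive cells 0 of 9 passed with limma, and 1 higher and 1 lower did so at an unadjusted p under 0.05.

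Of 29 further PRC1 genes 26 were measured. In germinal center against naive cells 2 were higher and 1 lower, where 19.5% of all genes passed, namely Cbx6 (1.09 ± 0.28, limma adjusted p = 0.0131), E2f6 (1.05 ± 0.25, adjusted p = 0.00821) and Mga (-1.37 ± 0.36, adjusted p = 0.0146), the last pair being DNA-binding members of a variant PRC1. In plasma against naive cells 1 was higher and 8 lower, where 14.2% of all genes were higher and 16.1% lower, with a median of -0.24 against 0.06 for all genes. Phc2, the paralog of Phc1, was lower by a log2 difference of -3.99 ± 0.29 (adjusted p = 1.06e-07), with geometric mean intensities of 89.8 in plasma and 1431 in naive cells, followed by Mga (-2.47 ± 0.34, adjusted p = 5.22e-05), Scmh1 (-1.61 ± 0.52, adjusted p = 0.0288) and Bcor (-0.93 ± 0.25, adjusted p = 0.00947). The higher one, Auts2, was near background (0.54 ± 0.17, adjusted p = 0.0263). Phc2 was also lower in plasma than in germinal center cells (-3.78 ± 0.29, adjusted p = 2.5e-07) and in plasma than in memory cells (-4.01 ± 0.27, adjusted p = 3.77e-08), so Phc1 and Phc2 were lower in plasma cells in all 3 comparisons. Phc3, the other polyhomeotic gene, gave -0.52 ± 0.45 in plasma against naive cells (adjusted p = 0.444). In memory against naive cells 0 of 26 passed with limma, and 2 higher and 2 lower did so at an unadjusted p under 0.05.

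**Figure D5:**
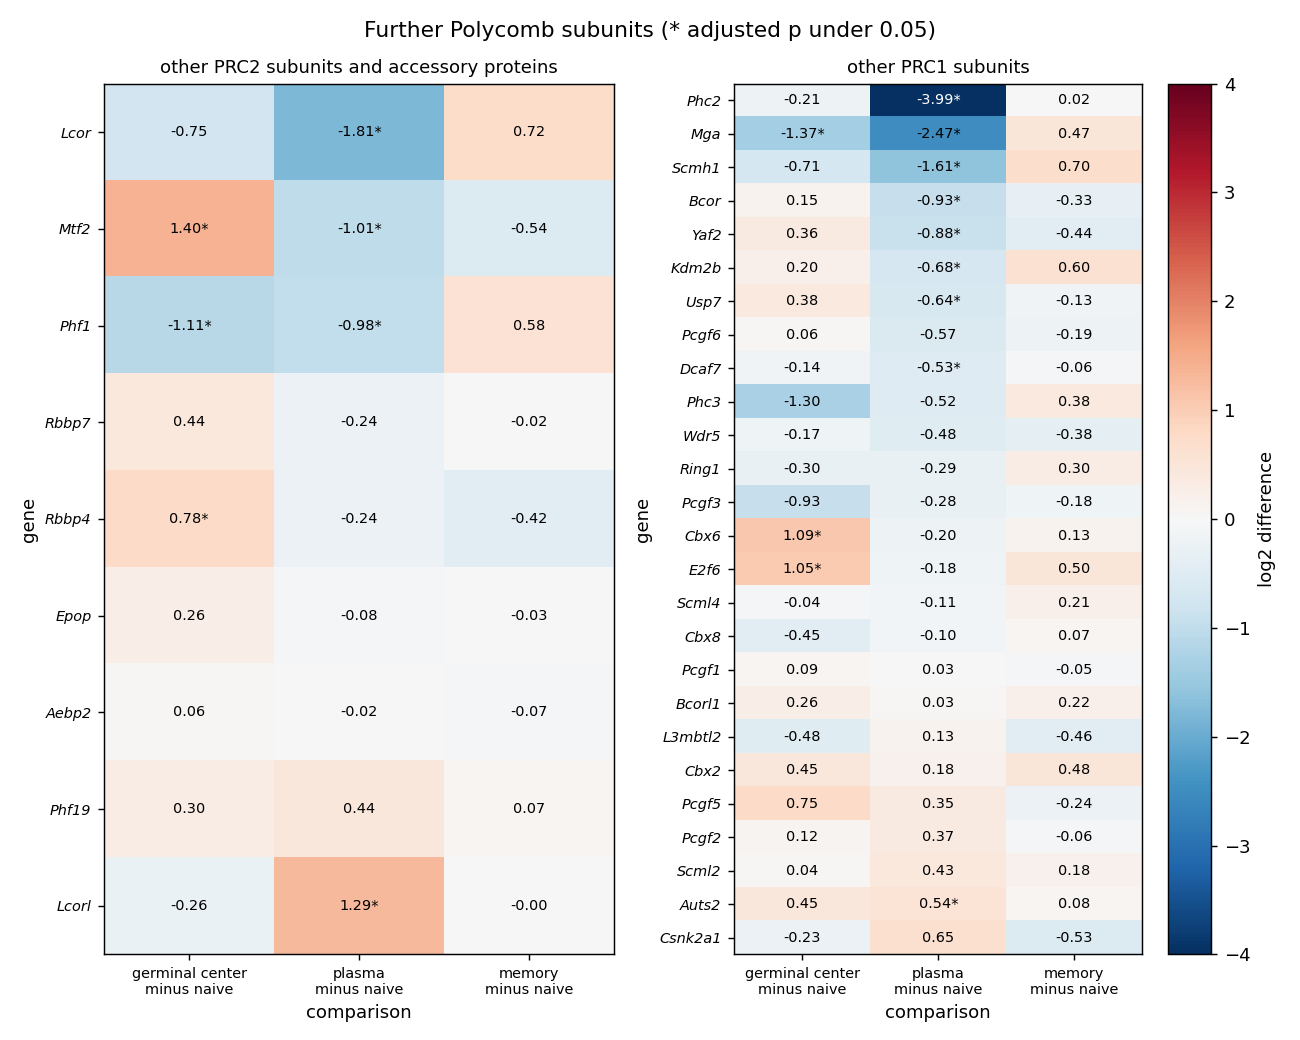
Log2 difference from naive cells of the further PRC2 genes (left) and PRC1 genes (right) for each immunized subset, with an asterisk at a limma adjusted p under 0.05. Phc2 in plasma cells (-3.99) is the deepest blue, and the memory columns hold no asterisk.

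Enzymes that remove the Polycomb marks were counted next, together with ASXL and FOXK proteins, which work with the deubiquitinase BAP1. Of these 12 genes 1 was higher and 3 lower in germinal center than in naive cells, where 8.37% of all genes were higher and 11.1% lower (median -0.36 against 0.06 for all genes). The H2A deubiquitinases Mysm1 (-1.60 ± 0.24, limma adjusted p = 0.000258) and Usp16 (-0.45 ± 0.14, adjusted p = 0.0332) and the H3 lysine 27 demethylase Kdm6a (-0.58 ± 0.18, adjusted p = 0.0371) were lower, and Foxk2, a forkhead transcription factor and no enzyme, was higher (0.96 ± 0.22, adjusted p = 0.00557). Plasma cells had 3 higher and 4 lower than naive cells, where 14.2% and 16.1% of all genes were so, with Usp16 now higher (0.79 ± 0.13, adjusted p = 0.000242) and Mysm1 again lower (-1.28 ± 0.23, adjusted p = 0.00056). In memory against naive cells 0 of 12 passed with limma, and 1 higher did so at an unadjusted p under 0.05.

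Of 46 measured genes known as Polycomb targets, 17 lay above background on at least 3 arrays. Among all 18193 genes, the 9 genes and 12310 others did so. In germinal center against naive cells 2 were higher and 2 lower, where 19.5% of all genes passed, and the largest difference was in Irf4, a regulator of plasma cell fate (-3.46 ± 0.33, limma adjusted p = 3.2e-06). Plasma cells had 6 higher and 2 lower than naive cells, where 30.3% of all genes passed, with Prdm1, the plasma cell regulator Blimp-1, at 5.58 ± 0.21 (adjusted p = 1.55e-10), Irf4 at 2.19 ± 0.31 (adjusted p = 6.98e-05) and the cell cycle inhibitor Cdkn1a at 1.26 ± 0.26 (adjusted p = 0.00164). The 2 lower genes are not named here. Prdm1 and Irf4 are also among the plasma cell markers with which the labels were checked. Their rise in plasma cells is therefore no separate result. Prdm1 lay above background on 1 of 3 naive arrays. The median over the 46 genes was 0.14 in germinal center and 0.10 in plasma against naive cells, against 0.06 for all genes in both.

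Replication and division genes, counted because EZH2 is known as a gene of dividing cells, were higher than in naive cells in 28 of 30 cases in germinal center (median 2.28) and in 28 of 30 in plasma cells (median 1.91), where 8.37% and 14.2% of all genes were higher, by limma at an adjusted p under 0.05. In memory against naive cells 1 was higher and 3 lower. Mki67 was the higher one (3.97 ± 0.34, adjusted p = 9.1e-06), with 1 of 3 naive arrays above background, and Mcm5 (-1.60 ± 0.20, adjusted p = 0.000248), Rrm1 (-0.92 ± 0.18, adjusted p = 0.00673) and Mcm3 (-0.83 ± 0.20, adjusted p = 0.0248) were the lower ones. Memory cells were lower than germinal center cells in 28 of 30. The part of cell division in the differences of the 9 genes was not tested.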

How the data were processed

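Gene expression of 4 sorted B cell subsets was measured on 14 Affymetrix arrays. The values used are deposited intensities of single probe sets on a linear scale, made with RMA per the submitters' processing notes, which give no version or chip definition. As usually run, RMA brings all arrays to one distribution of probe signals, so a shift shared by most genes of a subset would not be seen. No further scaling was applied, and log2 was taken of the deposited intensity with no pseudocount. Of 45101 probe sets, 34945 carry 1 gene symbol, 932 several and 9160 none, besides 64 controls, and only those with a single symbol were used. Linear models with 1 mean per subset were fitted to all 18193 genes and 14 arrays with limma 3.58.1 in R 4.3.3 (10 residual degrees of freedom, moderated by eBayes without a trend). Tests were two-sided, with Benjamini-Hochberg adjustment over all genes within each of 6 comparisons, and a call needed an adjusted p below 0.05. Values of other probe sets were adjusted over all probe sets. Precision is limited by the number of arrays, 3 or 4 per subset. The 9 genes, the gene lists, the comparisons and the motifs were chosen with earlier results of these data known. Named were all 9 genes with their probe sets and up to 3 most similar genes of each. Of each list up to 4 called genes with the largest difference were named, plus some of those against most of their list. The fit was tested on simulated data. Alternatives changed the scaling, the floor, the filter, the probe set rule, the variance model and the arrays used, and those of the F test were added after seeing the data. Figures were drawn with matplotlib 3.10.9 in Python 3.11.15.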

Additional observations from a re-analysis of the deposited data

How the results depend on the processing

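Of 54 differences (9 genes in 6 comparisons) 30 passed, 24 of them under all 26 alternatives listed, and none of the 30 turned its direction. Some differences that did not pass changed sign, such as Eed in germinal center against naive cells (-0.14 to 0.65). The 6 calls lost under some alternative were Rnf2 and Cbx7 in germinal center against naive cells, Phc1 in memory against naive cells, Phc1 and Cbx7 in memory against germinal center cells, and Suz12 in plasma against memory cells. Taking the mean of a gene's probe sets, dim ones included, shrank the fold of called differences of Ezh1, Rnf2, Cbx7 and Jarid2 by over 1.5 times, as the report gives. With this mean the log2 difference of Suz12 in plasma against memory cells was 0.43 in place of 0.87 and did not pass (limma adjusted p = 0.128). Of the 24 differences that did not pass, 7 did so under some alternative. The count of genes called in memory against naive cells was 0 with a floor of 16, with only the arrays of the compared subsets and at an adjusted p under 0.01, against 1; the cause was not tested. Leaving out each array in turn gave 0 to 1 genes in memory against naive, 5 to 6 in germinal center against naive, 6 to 7 in plasma against naive, 5 to 7 in memory against germinal center, 5 in plasma against germinal center and 5 to 7 in plasma against memory cells, and 7 to 9 by the F test. Without one array the difference of Ezh2 minus Ezh1 ranged from 3.25 to 3.66 in plasma against naive, from -5.83 to -4.79 in memory against germinal center, from -2.13 to -1.10 in plasma against germinal center and from 3.54 to 3.86 in plasma against memory cells. It no longer passed in these after adjustment. Fewer arrays raise the smallest exact p of the pairs that lose an array, and the adjustment over 6 pairs then raises the others. Without memory replicate 1, plasma against naive cells kept its 3.44 but had an adjusted p of 0.0571 by the permutation test. Of 19 pairs of arrays with one replicate number, 6 correlated over 0.1 (range -0.22 to 0.25). They were not set against pairs of unlike number, so this cannot settle whether replicate numbers pair the arrays. A replicate block left the counts called at 6, 6, 1, 6, 5 and 6, in the order of the comparisons in the plot of log2 differences.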

Other observations

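Trithorax group genes, which are known to counter Polycomb repression, were compared in the same fit. Of 19 measured methyltransferase, SWI/SNF and related genes, 4 were higher and 0 lower in memory than in naive cells by limma at an adjusted p under 0.05 (5 higher and 4 lower at an unadjusted p under 0.05), where 2.31% of all genes were higher and 3.26% lower, with a median log2 difference of 0.18 against -0.03 for all genes. The H3 lysine 4 methyltransferase genes Kmt2c (2.21 ± 0.37, adjusted p = 0.00245), Kmt2d (2.12 ± 0.38, adjusted p = 0.00439) and Kmt2a (1.92 ± 0.30, adjusted p = 0.00161) and the remodeller gene Chd7 (1.85 ± 0.44, adjusted p = 0.0247) were the higher ones, and in each the memory arrays lay above all naive arrays. In plasma against naive cells 0 were higher and 7 lower (median -0.55 against 0.06; 2 higher and 10 lower at an unadjusted p under 0.05), where 14.2% of all genes were higher and 16.1% lower, with Smarce1 (-1.88 ± 0.23, adjusted p = 1.83e-05), Arid1b (-1.82 ± 0.31, adjusted p = 0.000343) and Smarca2 (-1.51 ± 0.38, adjusted p = 0.00659) among them. In germinal center against naive cells 3 were higher and 2 lower (median -0.33 against 0.06; 3 higher and 6 lower at an unadjusted p under 0.05), where 8.37% of all genes were higher and 11.1% lower, led by Smarcc1 (1.95 ± 0.17, adjusted p = 1.31e-06) and Smarca2 (-1.97 ± 0.40, adjusted p = 0.00279).

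Eed, Suz12, Bmi1 and Rnf2 shared their lowest array in every subset: germinal center replicate 2, plasma replicate 4, memory replicate 1 and naive replicate 2. Each of these is also the array of its subset with the highest median log2 intensity over all genes (4.31, 4.29, 4.21 and 4.17). Germinal center replicate 2 (17.6), plasma replicate 4 (6.91) and memory replicate 1 (5.33) also had the highest actin ratio of their subset. Naive replicate 2 (4.39) had the lowest of its own, and the cause was not tested. The same 4 arrays were the lowest in 323 of 6116 genes with a mean log2 intensity of at least 6 (5.28%). After the subset means were taken out, Rnf2 correlated at r = 0.81 with Suz12 and at 0.80 with Eed over the 14 arrays, against 0.19 and 0.60 with the subset means left in.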
